A study of Bos taurus with 2 samples.

Results

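The CpG-poorer background of the inner pseudoautosomal region of the cattle Y chromosome was described, as 1 kb windows that hold 3 to 39 CpG sites between 0.85 and 6.822 Mb of the ARS-UCD2.0 assembly. The rule for windows used position and the number of CpG sites alone and no measured level, but it was set with earlier results of these data known. Of 5972 windows in this stretch, 5767 (96.6%) were members, whereas 165 windows held 40 or more CpGs and 40 windows held 0 to 2, including 9 with no CpG. Members contained 101220 of the 110699 CpGs of the stretch (91.4%), and on the whole chromosome 50322 of 59472 windows lay in the same density range.

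Both libraries came from genomic DNA of cattle lung, one read on PacBio HiFi and the other on Oxford Nanopore (ONT), with no treatment and no other tissue. In the study the chromosome belonged to a fetal male from a Wagyu sire and a Charolais dam, while the labels name neither animal nor age. Each platform was represented by 1 library, so differences between platforms or between windows have no replicate error, and spreads given below are standard deviations over windows. PacBio depth at member CpGs ranged from 15 to 269 reads, with a median of 80 and with 58 and 99 reads at the 5th and 95th percentiles, so that every member CpG passed the minimum of 10 reads.

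The pseudoautosomal region (PAR) is the stretch in which X and Y still pair and recombine in male meiosis, and it carries genes that are present on both sex chromosomes. The male-specific region (MSY) beyond its boundary is not exchanged with the X. In mammalian somatic tissue most cytosines of CpG dinucleotides are methylated, and methylated cytosine is prone to deamination to thymine, which depletes CpGs over evolution. CpG islands at promoters are dense in CpG and usually stay unmethylated, so that windows outside them form the methylated bulk of the sequence. Median PacBio depth over member windows was 80.8 reads per CpG, compared with 46.4 in short-arm MSY windows of the same density, and reads from the X and Y copies of the PAR cannot be told apart in these values.

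The background was highly methylated on both platforms. The mean PacBio level of the 5767 windows was 78.8% ± 13.1 (SD over windows), with a median of 81.7% and quartiles of 73.3% and 88.0%. The mean ONT level was 68.4% ± 12.1, with a median of 71.0% and quartiles of 63.5% and 76.6%. Single windows ranged from 3.07% to 96.6% on PacBio and from 1.85% to 88.9% on ONT. A long tail towards low levels was therefore present in an otherwise narrow distribution.

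ONT gave lower levels than PacBio in 5686 of 5767 windows (98.6%), with a mean difference of -10.5 percentage points (ONT minus PacBio, SD 4.31). The order of windows was nevertheless shared, with a Pearson correlation of 0.945 and a Spearman correlation of 0.906 across windows of the same DNA source, and 0.857 (Pearson) across single CpGs. The ONT rows of both strands gave 68.0% and 68.7%, and their median absolute gap per window was 3.43 points, with 24 windows in which it exceeded 20 points. The offset between the platforms was smaller in windows with PacBio levels under 50%, at -5.56 points, than in the remaining windows, at -10.7 points. The PacBio level that splits these windows is also part of the difference, so that a smaller offset in the low group is in part fixed by the split.

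Single CpGs were spread differently on the 2 platforms. Of member CpGs, 47.9% had a PacBio level of 90% or more, 11.7% lay between 40% and 60% and 2.87% lay under 20%. On ONT 5.88% reached 90% or more, 29.1% lay between 80% and 90% and 39.05% in the wider range between 60% and 80%. The median CpG had a level of 89.4% on PacBio and 74.2% on ONT. At the median depth of 80 reads, 73 modified reads correspond to 91.3% with a Wilson 95% interval of 83.0% to 95.7%, which covers counting error only. Within a window, PacBio levels of CpGs had a mean SD of 15.3 points.

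**Figure D1:**
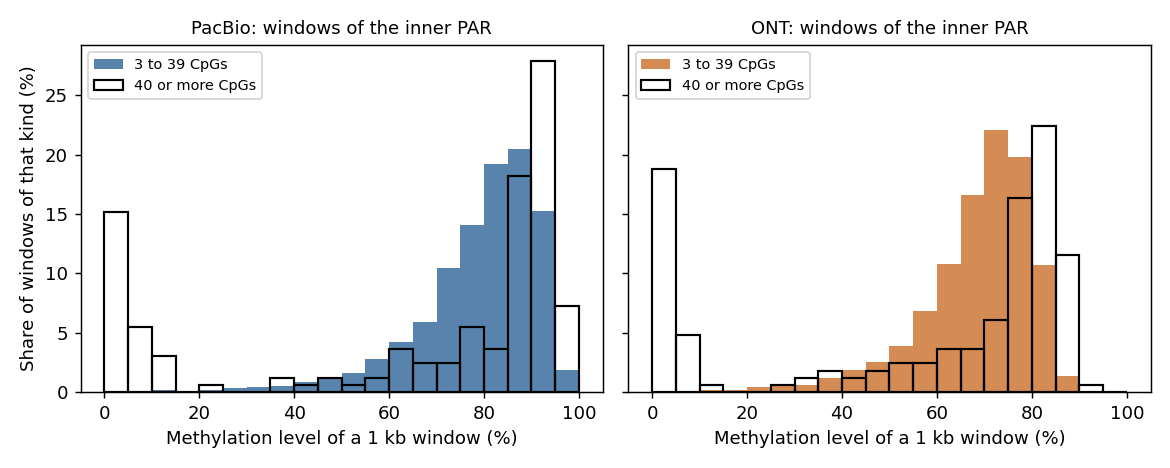
Histograms of the methylation level of 1 kb windows of the inner PAR (x axis, in steps of 5%) as a share of the windows of each kind (y axis, %), on PacBio (left) and ONT (right). Filled bars show the 5767 windows of 3 to 39 CpGs, which form 1 peak (mean 78.8% on PacBio, 68.4% on ONT), and open bars show the 165 windows of 40 or more CpGs, which also form a group near 0%.

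Over all members together, mean methylation was lowest in the sparsest windows and flat above 15 CpGs. Windows of 3 to 5 CpGs (n = 138) had the lowest mean PacBio level, 73.1% ± 13.1 (SD). The mean was 77.0% in 583 windows of 6 to 9 CpGs, 78.3% in 1432 windows of 10 to 14 and 79.8% in 1542 windows of 15 to 19. It was then flat, at 79.4% in 1690 windows of 20 to 29 CpGs and 79.3% in 382 windows of 30 to 39 CpGs. On ONT the same classes gave 63.6%, 66.3%, 67.8%, 69.2%, 69.1% and 68.9%. The densest class was 6.20 points above the sparsest on PacBio and 5.24 points above it on ONT. With windows shifted by 500 bp the difference was 4.27 and 4.82 points.

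The median and the mean parted as density rose. The median PacBio level increased through all classes, from 74.3% in windows of 3 to 5 CpGs to 84.5% in windows of 30 to 39 CpGs. From 6 to 9 CpGs upwards the spread increased as well, with SDs of 11.6 points in that class and 16.2 points in windows of 30 to 39 CpGs. The share of windows at 90% or more on PacBio increased from 7.97% to 25.4% between the sparsest and the densest class, and the share under 50% was 3.62% and 5.76% in these classes. On ONT the shares under 50% were 12.3% and 10.99% in these end classes, and no window reached 90%. On both platforms the share was lower between the end classes, down to 2.57% on PacBio (6 to 9 CpGs) and 6.49% on ONT (10 to 14 CpGs). Beyond the upper limit, the 165 windows of 40 or more CpGs had a mean of 65.2%, a median of 86.0% and an SD of 35.8 points.

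Levels just inside and just outside the density range were as follows. Windows of 2 CpGs had a mean PacBio level of 74.6% (n = 22) and windows of 3 CpGs 73.5% (n = 27). Windows of 39 CpGs had 82.3% (n = 17) and windows of 40 CpGs 70.8% (n = 12), with medians of 85.3% and 87.6%.

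Across member windows the Spearman correlation of level with CpG number was 0.138 on PacBio and 0.158 on ONT. In windows of the same range it was 0.0148 and -0.00664 in the outer PAR, before 0.85 Mb, and -0.0201 and 0.0108 in the short-arm MSY up to 9 Mb. In the long arm between 24 and 59 Mb it was 0.530 and 0.545. There, mean PacBio level climbed from 35.8% in windows of 3 to 5 CpGs to 71.9% in windows of 30 to 39 CpGs. The inner PAR therefore differed from the long arm mostly in its sparse windows, by 37.3 points at 3 to 5 CpGs and 7.43 points at 30 to 39 CpGs. These points share their library and neighbouring sequence, so the coefficients are descriptions. Depth also differed between the regions, with a median of 46.6 reads in the long arm, and its part in the contrast was not tested.

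Spacing of single CpGs gave a related picture. CpGs with a neighbour 2 to 5 bp away averaged 81.8% on PacBio and 73.0% on ONT. CpGs with a neighbour 6 to 10 bp away had a mean PacBio level of 83.2%, compared with 74.2% at 51 to 100 bp and 73.7% beyond 200 bp, with 74.9% in the class between these. The ONT means at 6 to 10, 51 to 100 and over 200 bp were 72.8%, 63.5% and 63.4%. In the long arm the PacBio means at these 3 distances were 67.8%, 35.8% and 32.8%. The difference was present inside windows too. In 4562 member windows that held both kinds, CpGs with a neighbour within 10 bp had 83.4% and CpGs isolated by more than 50 bp had 74.8%, a difference of 8.60 points (SD 17.3) in which the close CpGs were higher in 3329 windows (73.0%). On ONT they were higher by 9.37 points, in 3479 windows (76.3%).

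**Figure D2:**
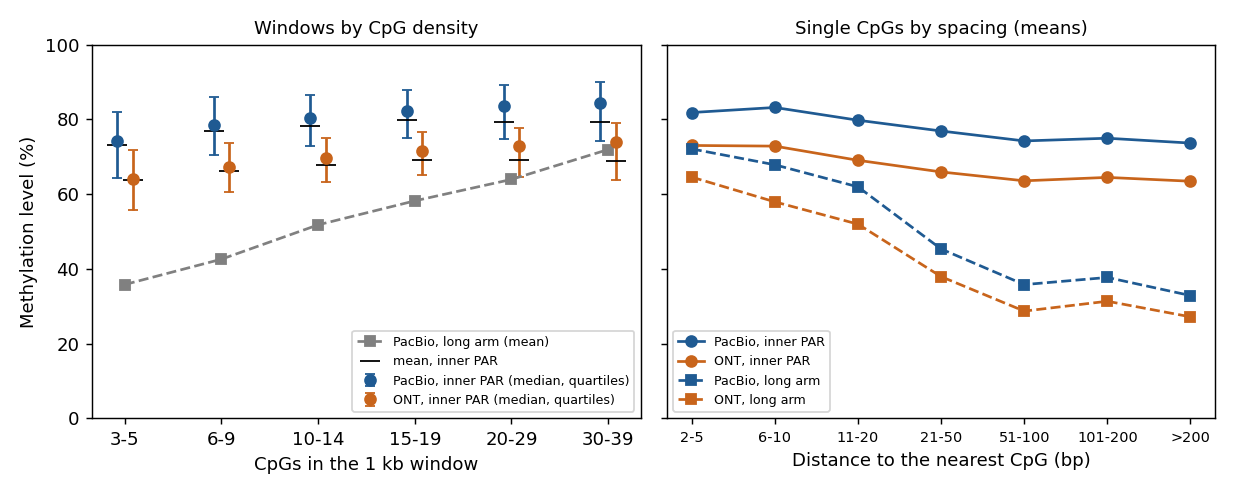
Left, methylation level (y axis, %) of 1 kb windows by the number of CpGs in them (x axis), with circles and bars for the median and quartiles of inner PAR windows on PacBio (blue) and ONT (orange), black dashes for their means and grey squares for the PacBio mean in the long arm; inner PAR means run from 73.1% to 79.8% on PacBio, whereas the long arm climbs from 35.8% to 71.9%. Right, mean level of single CpGs (same y axis) by distance to the nearest CpG (x axis, bp) in the inner PAR (circles) and the long arm (squares), where inner PAR means on PacBio were 81.8% at 2 to 5 bp, 83.2% at 6 to 10 bp and 73.7% beyond 200 bp.

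Along the region the background kept nearly the same level at both ends and sagged in the middle. Over the first 1 Mb the PacBio level averaged 79.7% ± 15.7 (SD over 906 windows) and the last 1 Mb, next to the boundary, 79.4% ± 15.4 (971 windows). The ONT levels of these ends were 69.4% ± 14.7 and 68.2% ± 14.5.

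In segments of 500 kb, mean PacBio level was 80.7% at 0.85 to 1.35 Mb and 78.7% at 1.35 to 1.85 Mb, the CpG-richest segments, with 22.4 and 22.1 CpGs per window. It was 78.1% at 1.85 to 2.35 Mb and reached its lowest value, 74.8%, at 2.35 to 2.85 Mb. That segment was also the CpG-poorest, with 11.6 CpGs per window, and the deepest, with 92.1 reads per CpG. The next segments gave 76.7% up to 3.35 Mb, 76.3% up to 3.85 Mb and 77.1% up to 4.35 Mb. NLGN4X, which encodes a neuroligin, a cell adhesion protein of synapses, lies in the segment that ends at 3.85 Mb.

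Levels were higher in the following 1.5 Mb. They were 79.8% up to 4.85 Mb, 81.5% up to 5.35 Mb and 83.5% up to 5.85 Mb, the highest of all segments, before 79.1% and 79.9% in the last segments. The corresponding ONT means, in order along the region, were 70.2%, 68.6%, 67.6%, 65.0%, 66.4%, 66.3%, 66.4%, 69.5%, 71.1%, 72.8%, 68.2% and 68.3%. Both platforms thus placed the lowest segment at 2.35 to 2.85 Mb and the highest at 5.35 to 5.85 Mb. Segment means spanned 8.70 points on PacBio, and SDs over the windows of a segment ran from 10.6 to 17.5 points.

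Weighting every segment to the same mix of density classes left most of this pattern in place. The segments then spanned 7.80 points on PacBio, and 7.22 points on ONT in place of 7.84. The segment at 5.35 to 5.85 Mb was again highest with 83.5%, and the CpG-poorest segment rose to 77.1%. The lowest value was then 75.7%, at 2.85 to 3.35 Mb, but it rested on 1 window. That segment held 2 windows of 30 to 39 CpGs, with PacBio levels of 3.07% and 87.6%. Without the lower one, an alternative chosen after seeing the data, the segment had 78.5% and the lowest segment was 3.35 to 3.85 Mb with 76.3%. At a finer scale of 50 kb, PacBio means ran from 71.0% at 5.55 Mb before the end of the region to 88.6% at 1.40 Mb before it. Depth of these 50 kb means was between 45.7 and 129.2 reads, and the deepest, 4.60 Mb before the end, had a low level of 71.6%.

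**Figure D3:**
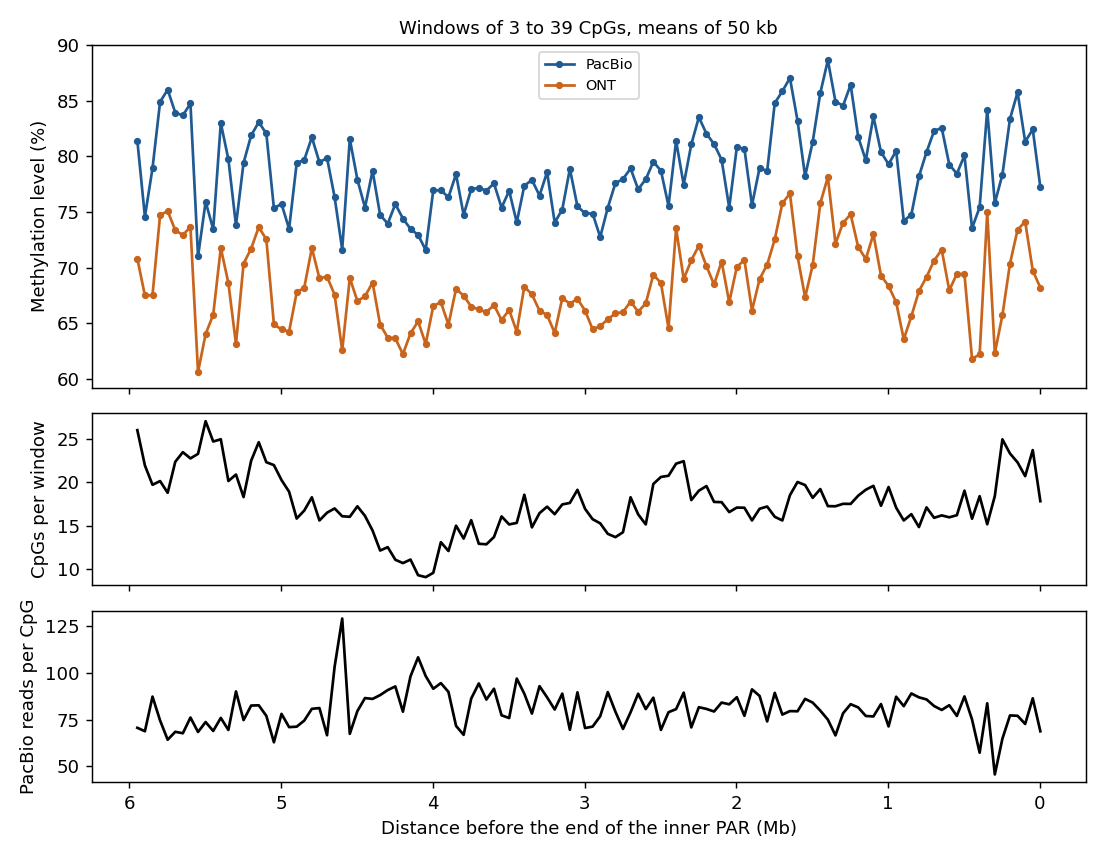
Means of 50 kb over windows of 3 to 39 CpGs, against distance before the end of the inner PAR (x axis, Mb), for methylation level (top, y axis in % from about 60 to 90, PacBio blue and ONT orange), CpGs per window (middle) and PacBio reads per CpG (bottom). Both platforms are low around 4 Mb before the end, where there are fewest CpGs, and PacBio peaks at 88.6%, 1.40 Mb before it.

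At the PAR boundary the picture depended on the scale. In the last 100 kb of the region the mean PacBio level was 81.8% ± 14.9 (SD over 90 windows), and in the first 100 kb of the MSY it was 1.75 points lower, with an SD of 15.4 points (89 windows of the same density range). This difference was 0.0047 points with each CpG counted once and 0.138 points without windows under 0.5 or over 1.5 times the median depth of the inner PAR, limits that also apply to the shallower MSY side. The ONT levels on these sides were 70.9% ± 13.97 and 70.6% ± 13.8. CpG density and depth, however, both changed there. Windows had 22.5 CpGs before and 7.40 CpGs after the boundary, and median depth fell from 82.5 to 47.0 reads, with 4 MSY windows over 150 reads.

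Directly at the boundary, levels were higher on the MSY side. PacBio levels averaged 77.1% ± 16.4 in the last 20 kb of the PAR (SD over 16 windows), and ONT levels 68.2% ± 14.1. The first 20 kb of the MSY had 92.1% ± 5.70 and 81.9% ± 6.46 (18 windows), and 15 of these windows reached 90% or more on PacBio, compared with 1 on the PAR side. The next 20 kb of the MSY had 69.1% on PacBio and 70.2% on ONT, at a mean depth of 345.1 reads and a median of 43.8. On the PAR side within 200 kb, pieces of 20 kb ran from 76.5% to 89.4%.

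Within density classes, MSY windows up to 14 CpGs were higher over 1 Mb on each side. The PacBio means before and after the boundary were 72.5% (14 windows) and 83.7% (312 windows) at 3 to 5 CpGs. They were 81.8% (73 windows) and 86.8% (285 windows) at 6 to 9 CpGs, and 79.0% (230 windows) and 83.5% (161 windows) at 10 to 14 CpGs. At 15 to 19 CpGs the means were 80.5% and 80.4%, and at 20 to 29 CpGs 78.3% and 77.9%. On ONT the MSY side was higher in all of these classes, with 63.5% and 73.7% at 3 to 5 CpGs, 70.7% and 76.5% at 6 to 9, 68.0% and 74.7% at 10 to 14, 69.3% and 71.7% at 15 to 19, and 67.1% and 70.8% at 20 to 29 CpGs. The densest class, 30 to 39 CpGs, went the other way, with 80.2% (67 windows) before and 37.4% (7 windows, 5 of them under 50%) after the boundary, and 68.2% and 32.8% on ONT. Over the first 1 Mb of the MSY the mean was 83.9% on PacBio and 74.2% on ONT, and over the short-arm MSY up to 9 Mb it was 73.9% and 64.4%. The outer PAR gave 71.0% and 61.7% in 635 windows of the same range. Background windows of the inner PAR were thus above the means of both neighbouring parts as a whole, by 7.77 points over the outer PAR and 4.89 points over the short-arm MSY on PacBio.

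Levels were somewhat higher inside protein-coding genes than outside them. The PacBio level averaged 80.4% ± 13.3 (SD, 1602 windows) in windows wholly inside protein-coding genes and 78.2% ± 13.0 (4141 windows) outside them. The ONT means were 69.7% and 67.8%. Windows in these genes were higher by 2.15 points on PacBio and by 1.86 points on ONT. They held more CpGs, 20.3 against 16.5 per window. In windows of 3 to 5 CpGs the mean inside protein-coding genes was 78.8% (n = 18) and outside them 72.2% (n = 119). In windows of 20 to 29 CpGs these means were 80.5% (n = 608) and 78.8% (n = 1073). Windows outside include those in annotated genes of other types. Position was not matched in this contrast, although segment means spanned 8.70 points on PacBio.

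Of 24 protein-coding genes in the region, 13 contained at least 20 member windows. Their mean PacBio levels lay between 74.4% and 86.3%, with an SD of 3.38 points over genes. The highest was PNPLA4, which encodes a lipase of the patatin-like phospholipase family, with 86.3% ± 12.8 on PacBio and 75.9% on ONT (SD over 42 windows). DHRSX, a short-chain dehydrogenase/reductase gene, followed with 84.7% ± 10.9 and 74.0% (210 windows).

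Several genes lay between 81% and 84%. ARSH, of the arylsulfatase family, had 83.7% on PacBio and 72.2% on ONT. GYG2, encoding a glycogenin that primes glycogen synthesis, had 82.8% and 71.9%. LOC101902122, which has no gene name, had 82.5% and 70.2%. CD99, a cell-surface glycoprotein gene, had 82.4% and 70.5%, and TBL1X, which encodes a subunit of a corepressor complex, had 82.3% and 70.5%. ANOS1, the gene of the extracellular matrix protein anosmin, had 81.1% and 69.7%. PUDP, a pseudouridine phosphatase gene, and STS, the gene of steroid sulfatase, both had 81.0% on PacBio, and 73.4% and 69.9% on ONT. SDs over the windows of a gene were between 10.9 and 18.6 points over all 13 genes.

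The lowest genes were PRKX, NLGN4X and XG. PRKX, which encodes a cyclic AMP-dependent protein kinase, had 77.1% ± 18.6 on PacBio and 67.1% on ONT, with 8 of its 56 windows under 50% on PacBio. NLGN4X, the neuroligin gene and the gene with most windows (386), had 76.5% ± 11.1 and 66.3%. XG, the blood group antigen gene, had 74.4% ± 16.2 and 67.5% over 28 windows. XG and PUDP had the smallest offsets between platforms, -6.95 and -7.66 points. On ONT the lowest gene was therefore NLGN4X and not XG. The PacBio mean of NLGN4X was close to the 76.3% of the 500 kb segment that holds it, to which its windows contribute.

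**Figure D4:**
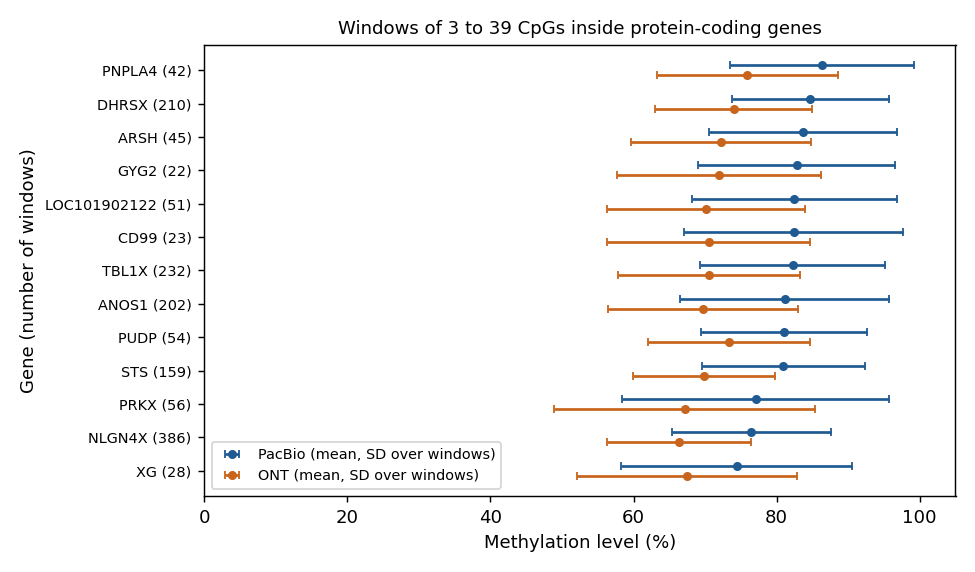
Mean methylation level (x axis, %) of member windows inside each of 13 protein-coding genes (y axis, with the number of windows), on PacBio (blue) and ONT (orange), with bars for the SD over windows. PacBio means run from 74.4% in XG to 86.3% in PNPLA4, and the bars of all genes overlap.

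Around gene starts the mean level was lower. Member windows within 2 kb upstream of a protein-coding start had a mean PacBio level of 66.3% (n = 35), those within 2 kb downstream had 59.2% (n = 22) and those 2 to 4 kb downstream 71.8% (n = 41). Their ONT means were 54.3%, 49.7% and 60.9%. The PacBio medians were higher, with 68.8%, 72.4% and 81.3%, and 5, 7 and 7 of these windows lay under 50%, so that a few low windows carried much of the difference downstream of the start. At 6 to 8 kb into the gene the level was 83.9% on PacBio and 73.8% on ONT (n = 46), with no window under 50% on PacBio. Around gene ends the 2 kb bins within 20 kb lay between 72.7% and 82.0% on PacBio, with the lowest at 2 to 4 kb downstream.

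Next to unmethylated CpG-dense windows the background was also low. In the region 45 windows of 40 or more CpGs had PacBio levels under 50% and are called unmethylated here. They averaged 9.74% by PacBio, with a highest value of 48.7%, and 6.91% by ONT. The 48 members adjacent to them had a mean level of 53.3% ± 27.8 (SD) on PacBio and 44.8% ± 24.3 on ONT. Of these, 8 lay under 20%, 30 between 20% and 80% and 10 at 80% or more. At a distance of 2 windows the mean was 78.0% ± 14.7 on PacBio and 66.1% ± 14.5 on ONT, at 3 windows it was 75.4% and 64.6%, and more than 10 windows away it was 79.0% and 68.6%. By contrast, the 192 members adjacent to one of the 120 methylated CpG-dense windows averaged 82.6% ± 10.9 on PacBio and 72.5% on ONT.

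Windows under 50% were rare. There were 231 on PacBio, 4.01% of members (Wilson 95% interval 3.53% to 4.54%, for windows as units), compared with 43.9% of windows of the same density over the whole chromosome. On ONT there were 450, or 7.80% (interval 7.14% to 8.52%), compared with 67.1% over the whole chromosome. The long arm contributes most windows to these chromosome-wide shares, with 60.3% of its windows under 50% on PacBio, and in the outer PAR the share was 13.9% and in the short-arm MSY 11.96%. Of the 231 windows, 229 were under 50% on ONT as well, which is 99.1% of the PacBio list and 50.9% of the ONT list. ONT levels are lower nearly everywhere, which favours this overlap. At an ONT threshold lowered by the mean offset, to 39.5%, 190 windows were low and 179 were shared, 77.5% of the PacBio list and 94.2% of the ONT list.

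Low windows mostly stood alone. They formed 209 stretches, of which 188 were single windows, 20 were pairs and 1 was a run of 3 windows. The single ones had a mean of 37.8% on PacBio. Windows 1 kb to their left and right, which are at 50% or more by the choice of single windows unless they are no members, had means of 77.8% and 78.0%. All members at 50% or more had a mean of 80.6%. Across all members the Pearson correlation of neighbouring windows was 0.203 on PacBio and 0.220 on ONT, and at 2 kb it was 0.0857 and 0.0827. The median absolute difference between neighbours was 7.66 points, compared with 9.37 points for windows 200 kb apart.

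Low windows were more frequent near protein-coding starts and beside unmethylated dense windows, but these places held few of them. Of 231, 11 lay within 2 kb of a protein-coding start, out of 53 members there (20.8%), (windows counted once, whereas a window near several starts counts for each in the 57 window and gene pairs above), and 19 were adjacent to an unmethylated dense window, out of 48 (39.6%). In all, 82 members had either position and 21 of these were low (25.6%). The other 5685 members, 98.6% of all, included 210 low windows (3.69%). Protein-coding genes held 63 of them (27.3%) and 27.8% of all members, and annotated genes of any type held 90 of them (38.96%) and 39.7% of all members. Mean depth was 79.0 reads in low windows and 80.8 reads in the other members, and low windows held 19.97 CpGs on average against 17.5.

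Low windows were seldom low throughout. Only 22 had a PacBio level under 20%, and CpGs inside low windows had a mean SD of 26.4 points, compared with 14.8 points in the other members. At the resolution of single CpGs, 481 runs of at least 5 adjacent CpGs under 50% on PacBio were found in member windows. Their median span was 305 bp, with quartiles of 193 and 527 bp, and 16 exceeded 1 kb, up to 2008 bp. The mean level of these runs was 25.5% on PacBio and 22.8% on ONT. Such a run touched 210 low windows (90.9%) and 404 of the 5536 others (7.30%), a contrast largely fixed by the choice, since windows and runs were both called low from the same PacBio values. They contained 40.6% of the 12055 member CpGs under 50%, while 35.5% of these CpGs stood alone.

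**Figure D5:**
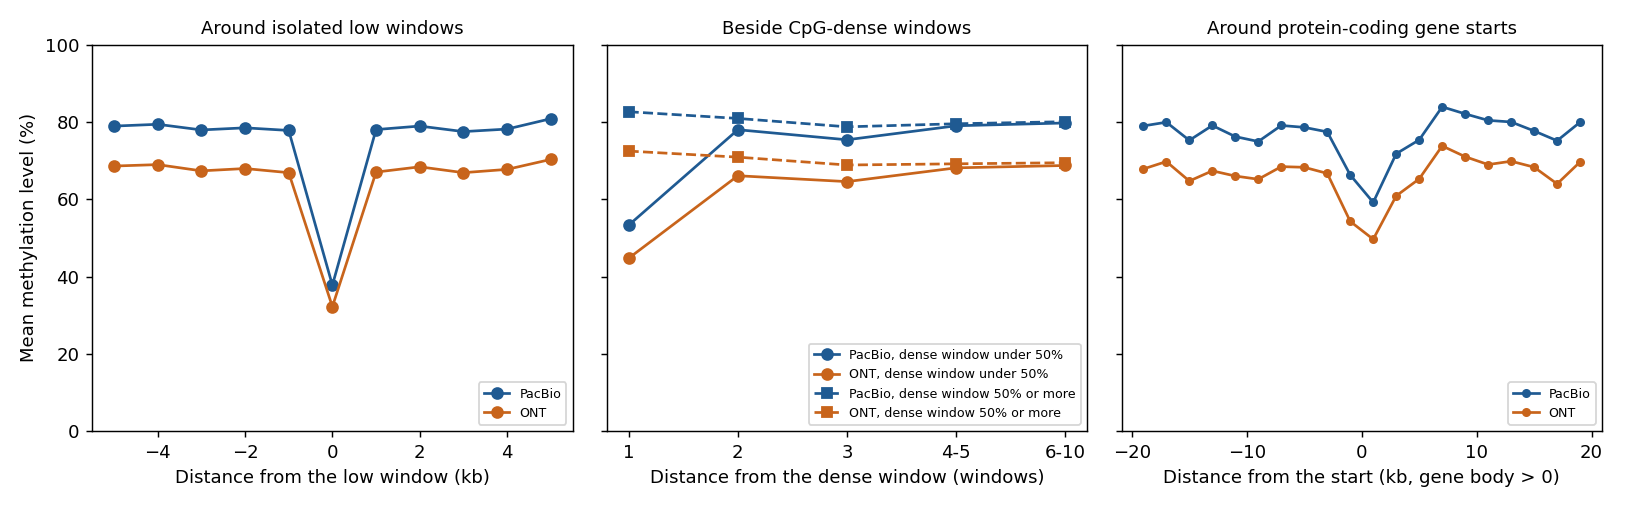
Mean methylation level (y axis, %) of member windows on PacBio (blue) and ONT (orange) around 188 isolated windows under 50% (left, x axis in kb), beside CpG-dense windows that are under 50% (solid) or at 50% or more (dashed) (middle, x axis in windows) and around protein-coding gene starts (right, x axis in kb, positive into the gene). Adjacent windows of isolated low windows, at 50% or more by choice, had 77.8% and 78.0% on PacBio, and the level beside unmethylated dense windows was 53.3% at 1 window, 78.0% at 2 and 75.4% at 3 windows.

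The lowest windows on PacBio were taken among those with at least 10 CpGs that lay in the same ONT quintile, so that their likeness between platforms was fixed by the choice. The window chrY:2967001-2968000 held 33 CpGs and had a level of 3.07% on PacBio and 1.85% on ONT, at a mean depth of 70.1 reads. It lay in an annotated long non-coding RNA gene and overlapped no protein-coding gene. The nearest protein-coding start, that of OBP (an odorant-binding protein gene), was 38.4 kb away, and the neighbours of the window had PacBio levels of 45.4% and 64.5%. The window chrY:6418001-6419000 (13 CpGs) had 3.59% and 2.71%, at a depth of only 31.9 reads, and lay adjacent to an unmethylated dense window. The window chrY:4785001-4786000 (18 CpGs) had 6.38% on PacBio and 10.6% on ONT. It overlapped no annotated gene and lay 293.5 kb from the nearest protein-coding start.

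At the other extreme, 2 of the 3 highest windows lay in PNPLA4, the most methylated gene. The window chrY:5173001-5174000 (23 CpGs) had 96.5% on PacBio and 86.8% on ONT, and chrY:5201001-5202000 (20 CpGs) had 96.2% and 86.2%. The remaining one, chrY:1701001-1702000 (12 CpGs), overlapped no protein-coding gene and had 96.2% and 84.0%. Neighbours of all 3 on the PacBio side had levels between 91.1% and 96.2%, in contrast to the neighbours of the lowest windows.

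The longest low stretch was chrY:4391001-4394000, 3 windows with 66 CpGs that averaged 35.6% by PacBio and 25.7% by ONT. It overlapped no protein-coding gene and lay 98.7 kb from the start of STS. All 20 stretches of 2 kb were tied behind it. Among them chrY:4784001-4786000 had the lowest PacBio mean, 15.7%, and contains the low window described above. Its ONT mean was 19.6%, and other stretches of 2 kb were lower on ONT, down to 16.9%. Inside genes lay chrY:1757001-1759000 (45.0% and 30.9%) and chrY:1763001-1765000 (41.6% and 33.6%), both in PRKX, 17.1 and 11.1 kb from its start, as well as chrY:3804001-3806000 in NLGN4X (26.0% and 23.1%), 4.87 kb from its start, and chrY:5828001-5830000 in ANOS1 (33.9% and 28.4%). These stretches of 2 kb were picked from the tie after their values were seen.

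Windows of unusual depth differed in level. The 31 members with less than 0.5 times the median depth of 80.8 reads had 72.0% on PacBio and 57.2% on ONT, and the 39 members with more than 1.5 times that depth had 65.5% and 62.5%. In the deep windows the platforms differed by -2.97 points, in place of -10.5 points in the 5697 windows of ordinary depth. Together these are 70 windows, and without them the mean level was 78.9% on PacBio and 68.5% on ONT.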

How the data were processed

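Methylation was measured in 2 libraries of lung DNA, 1 per platform. For PacBio, the authors estimated methylation of HiFi reads with Primrose and summarised them with pb-CpG-tools. The deposited file holds, for every CpG, a score in percent, a read count and the model's split of these reads into modified and unmodified ones. For ONT, the authors called bases with Dorado and summarised them with modbam2bed after discarding calls between their thresholds. The deposited ONT values are percent per strand without counts, so that ONT depth is unknown.

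The files run in opposite directions and were both placed on the assembly. The PacBio placement rests on the chromosome length in the study, and the ONT placement on a separate given offset. The score was used as PacBio level and both ONT strand rows were averaged, at CpGs with at least 10 PacBio reads. A window level is the unweighted mean over its CpGs (Python 3.11.15, pandas 2.3.3, scipy 1.17.1). The functions were tested on simulated data. With 1 library per platform no test between samples was possible, and all comparisons are descriptions. Alternatives changed the read minimum, the weighting, the strand row, the source of the PacBio level, ONT rows at 0, the window start, the density range and the depth range. Intervals at 95% are Wilson intervals. For a single CpG the interval covers counting error of reads only. For a share of windows it treats windows of 1 library as independent, although neighbouring windows were correlated, so it is a description.

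Genes were taken from the study's gene table as intervals. Of 47 genes there, 5 have the same coordinates in RefSeq's Y table, which holds 6 genes of the region. A gene next to the boundary is not reported here. Named items were the 3 lowest and 3 highest windows of at least 10 CpGs on PacBio that lay in the same ONT quintile, genes with at least 20 windows, all 500 kb segments and the 3 longest low stretches. Since 20 stretches of 2 kb tied behind the longest, the last part could not be followed, and the 5 of them that are named were picked after their values were seen. Members and lists were chosen with earlier results of these data known.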

Additional observations from a re-analysis of the deposited data

How the results depend on the processing

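In all, 17 results were recomputed under 12 alternatives, which gave 200 values. The values moved as follows. The contrast of the densest and sparsest class ran from 4.27 to 7.78 points on PacBio (6.20 as reported) and from 4.45 to 6.08 on ONT (5.24), lowest on PacBio with shifted windows and on ONT with the plus-strand row. The contrast inside and outside genes ran from 1.89 to 2.27 points on PacBio, and that beside unmethylated dense windows from -29.8 to -21.5. A binomial interval that treats each window as 1 trial is wider than the class and boundary contrasts themselves and says nothing of their stability. With the median over the CpGs of a window in place of the mean, the mean level was 83.1% on PacBio and 70.4% on ONT, the difference between platforms -12.7 points, the Spearman correlation with density 0.170 on PacBio and the share under 50% on PacBio 4.79%. With each CpG counted once, that share was 4.56%. None of these changed direction. The step at the boundary on PacBio (1.75 points) ran from 0.0047 with each CpG counted once, through 0.138 without windows of extreme depth, to 2.44. The sign differed in 5 values, 4 of the step at the boundary on ONT (0.288 points, between -1.15 and 0.852 under the alternatives) and 1 of the change along the region on PacBio (-0.288 points, between -0.371 and 0.0250), both near 0. All member CpGs had at least 10 reads, so a minimum of 4 reads left the same CpGs. Windows of 5 to 29 CpGs give no contrast of the densest and sparsest class, and counting each CpG once gives no correlation over windows. No paired analysis was possible because each platform has 1 library. The ONT values carry no depth, so their precision per CpG is unknown, and reads of the X and Y copies of the region cannot be told apart.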
